A study of Homo sapiens with 6 samples.

Results

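The microarray used here carried 2997 probes, and 1084 of them were named for mouse miRNAs although the RNA hybridised to it was human. Setting aside the 354 mouse-named probes with the suffix -P left 730, and 390 of these carried a name that no human mature-named probe shared once the species prefix was removed. These 390 probes were found by a rule on names that uses no signal, but it was set with earlier results of these data known. The 390 are described here beside the 340 mouse-named probes with a human namesake and the 1115 human mature-named probes. They cover 253 distinct miRNA numbers, so several members often share a number, a family or much of a sequence, and they are not replicates of each other. For 263 members no human mature-named probe and no human RefSeq miRNA gene had the same number, for 124 a human mature-named probe had the same number in another spelling, arm or letter, and for 3 only a human RefSeq gene had it. In 9 of the 390 the name differed from a human probe only in capital letters (miR-31 against mir-31, for example).

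The cells were HCT-116, an established line from a human colorectal carcinoma, after transient transfection with variant 1 of Uc283+a, a transcript of an ultraconserved region, with variant 2 of the same transcript, or with the empty vector (mock). Variant 1 has a run of 8 T and variant 2 a run of 9 T. Each of these 3 groups had 2 arrays, and all were the same line under the same kind of transfection. Total RNA, 4 µg per array, was labelled by reverse transcription from a biotinylated random octamer, so RNA of any length could be labelled. The study looked for miRNAs that respond to Uc283+a, and nothing in the labels says that the 2 arrays of a group hold separate cultures. The p-values below therefore measure only the spread between these arrays, which may be technical.

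A mature miRNA is a short RNA cut from one arm of a hairpin precursor, and its seed, the bases 2 to 8 from the 5′ end, guides most of its pairing with target mRNAs. Many miRNAs have the same mature sequence in mouse and human, while others arose in the rodent lineage and have no counterpart in the human genome. A probe reports whatever labelled RNA pairs with it, so signal on a mouse-named probe does not by itself identify the RNA that gave it. Signals of different probes also differ with their sequence, and the order of levels below is an order of signal and not of abundance.

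The sequences of the mouse probes were not used here. Printed instead are the human miRNAs closest by family or name to the members on which the results turn, from RefSeq (GRCh38.p14), 5′ to 3′ with the seed in capitals. The first set comes from the human miR-371 to miR-373 cluster on chromosome 19, the human relative of the mouse miR-290 to miR-295 cluster. Within it hsa-miR-371-5p (chr19:53787680-53787699, plus strand) and hsa-miR-373* (chr19:53788710-53788731, plus strand) come from the 5′ arm, and their seeds share the first 6 bases.
hsa-miR-371-5p: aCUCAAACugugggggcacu
hsa-miR-373*: aCUCAAAAugggggcgcuuucc
hsa-miR-372: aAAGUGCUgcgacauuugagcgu
hsa-miR-373: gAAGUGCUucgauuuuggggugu

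The miRNA hsa-miR-466 (chr3:31161714-31161736, minus strand) is shown because it shares its number with the largest group of bright members. Of its 23 bases, 19 were A or C, and the dinucleotide CA occurred 7 times.
hsa-miR-466: aUACACAUacacgcaacacacau

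The last set gives human miRNAs whose mouse form is among the members under another spelling. They are hsa-miR-125b (chr11:122099809-122099830, minus strand, 1 of 2 loci), hsa-miR-31-5p, probed as hsa-mir-31 (chr9:21512158-21512178, minus strand), and hsa-miR-361-5p (chrX:85903681-85903702, minus strand).
hsa-miR-125b: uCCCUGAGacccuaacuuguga
hsa-miR-31-5p: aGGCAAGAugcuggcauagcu
hsa-miR-361-5p: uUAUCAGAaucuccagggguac

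Unspecific signal was read from 38 Randomer probes, which carry random sequence, and a probe is called above the Randomer level where it exceeded the 95th percentile of the Randomer probes of the same array on all 6 arrays. That percentile was 6.76 and 6.94 for variant 1, 7.27 and 6.75 for variant 2, and 6.86 and 6.81 for mock, all as log2 signal normalized by the authors. By this measure 94 of the 390 members (24.1%) were above the Randomer level. The share was 29.1% for mouse-named probes with a human namesake (99 of 340), 23.2% for human mature-named probes (259 of 1115) and 22.8% for all 2857 miRNA and ultraconserved-region probes (651). The members thus lit up about as often as the human-named probes, and the difference in shares was not tested. Of the 93 mismatch probes of the array, 38 (40.9%) were above the level too, a larger share than that of the members. The mismatch probes carry human miRNA names and are not matched to the members, so these shares are of unlike sets. A further 140 members were above the level on 1 to 5 arrays, and 156 on none. The number above on a single array was 167 and 134 for variant 1, 106 and 178 for variant 2, and 156 and 152 for mock, and the array with the fewest, variant 2 replicate 1, was the one with the highest Randomer percentile.

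The control rows place these values. Across the 6 arrays the blank rows lay between 5.90 and 6.33, the small nucleolar RNA probes between 9.50 and 12.65, and a row named spacer between 11.33 and 12.59. Of the human markers looked at to check the labelled cell line, 6 of 11 epithelial and colon miRNAs were above the Randomer level, among them miR-200b, miR-200c, miR-429, miR-203, miR-205 and miR-21, while miR-200a, miR-141, miR-192, miR-194 and miR-215 were not. Above the level were also 1 of 6 haematopoietic, 1 of 4 muscle, 2 of 4 neural and 1 of 1 liver markers. Members above the Randomer level had means over the 6 arrays of at least 7.18, with a median of 9.54, against a median of 6.26 for the other members. Of the 94, 38 had a mean over 10 and 21 a mean over 11.

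The shares were close for members with and without a human probe of the same number, and their difference was not tested. Among the 263 members with no human probe or RefSeq gene of their number 66 were above the Randomer level (25.1%), and among the 124 with a human probe of their number 28 were (22.6%). In 25 of these 124 both the member and at least 1 human probe of that number were above, in 3 only the member, in 30 only a human probe, and in 66 neither. The 3 were mmu-miR-382*, mmu-miR-297a* and mmu-miR-297c*. The 3 members whose number had only a human RefSeq gene were not above the level.

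A single member sat at the scanner ceiling, taken as within 0.5 of a log2 value of 16, on all 6 arrays. It was mmu-miR-290-5p, named for the 5′ arm of the first hairpin of a cluster that is highly expressed in mouse embryonic stem cells. Its value was 15.99 on every variant 1, variant 2 and mock array, with a range of 0.0004, so it carries no information on a change between the groups. Outside the members, hsa-miR-1273c and hsa-miR-543-P were also at the ceiling on all 6 arrays. The member mmu-miR-2140 reached the ceiling on 1 array.

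The rest of the embryonic cluster did not share that signal. Of its 14 members, 3 were above the Randomer level (21.4%, against 24.1% of all members). They were mmu-miR-290-5p itself, mmu-miR-290-3p with a mean of 8.44 and mmu-miR-292-3p with a mean of 8.57. Among those not above it were mmu-miR-291b-3p (7.45), mmu-miR-294 (6.56) and mmu-miR-295 (6.36). The probe mmu-miR-290-3p read 8.06 and 7.98 in variant 1, 8.95 and 8.38 in variant 2, and 8.81 and 8.44 in mock. In the related human cluster, hsa-miR-371-5p averaged 9.76, hsa-miR-373* 10.67 and hsa-miR-371-3p 10.46, all above the Randomer level, whereas hsa-miR-372 (6.65) and hsa-miR-373 (6.44) were not. Of these, all but hsa-miR-371-3p have their sequence printed above. The labels name no RNA of mouse origin, and which RNA gave the signal on mmu-miR-290-5p was not tested.

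The largest group of members that lit up belongs to the miR-297, miR-466, miR-467 and miR-669 families, which in the mouse are encoded in a long repeated block within an intron of Sfmbt2, a Polycomb gene. Of 53 such members 32 were above the Randomer level (60.4%), against 24.1% of all members. By family these were 15 of 19 for miR-466, 9 of 16 for miR-669, 6 of 12 for miR-467 and 2 of 6 for miR-297. The human probe hsa-miR-466, whose A- and C-rich sequence is printed above, was also bright, with a mean of 10.70, while hsa-miR-297 had a mean of 6.66 and was not above the level.

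The brightest of the group was mmu-miR-466f-3p, with 12.70 and 11.94 in variant 1, 12.61 and 12.60 in variant 2, and 12.21 and 11.57 in mock. Next came mmu-miR-467b*, with 11.95 and 11.75 in variant 1, 12.20 and 12.19 in variant 2, and 11.70 and 11.49 in mock. Both probes were within 1.13 on the log2 scale over all arrays, which was also the median range over arrays of the members above the level. The probes mmu-miR-467f (mean 11.80), mmu-miR-466k (11.70) and mmu-miR-466i (11.67) had almost the same level, and their order lies within the spread over arrays.

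In the repeat families, probes named for different arms differed in signal. Of the probes named for the 3′ arm or the minor (star) strand, 13 of 14 were above the Randomer level, as against 3 of 8 named for the 5′ arm and 16 of 31 with no arm in the name. In the 14 pairs of probes that share a hairpin, the 3′ or star probe had the higher mean in 14 and was higher on all 6 arrays in 10, while the partner was higher on all 6 arrays in 0. The median difference was 2.25 on the log2 scale. The widest gap was that of miR-467b, where the star probe averaged 11.88 and its partner 6.11, and the narrowest that of miR-466d, at 9.58 for the 3p probe and 9.50 for the 5p probe. The other members showed no such lean: in 66 pairs the 3′ or star probe had the higher mean in 29, the median difference was -0.15, and 8 of their 86 probes for the 3′ or star strand were above the level. These are descriptions of related probes whose sequences were not used here, and whether the arm or the probe sequence goes with the signal was not tested.

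A second group is a range of miRNA numbers, and this list was chosen with earlier results of these data known. Of the 15 members named miR-2132 to miR-2146, 14 were above the Randomer level, all but mmu-miR-2139 (mean 6.37). No role is given here for these names. The brightest, mmu-miR-2140, read 12.83 and 13.09 in variant 1, 13.09 and 15.51 in variant 2, and 15.33 and 12.80 in mock. Replicate 2 of variant 2 and replicate 1 of mock were thus far above the other 4 arrays, which lay within 0.28 of each other. The same arrays stood out for mmu-miR-2145, with 7.17 and 7.22 in variant 1, 7.42 and 10.18 in variant 2, and 10.44 and 6.81 in mock, and for mmu-miR-2141, with 11.20 and 11.21 in variant 1, 11.17 and 13.65 in variant 2, and 12.93 and 10.48 in mock. Over the 14 probes the median per array was 11.12 and 10.88 in variant 1, 11.21 and 12.76 in variant 2, and 12.88 and 10.62 in mock.

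Replicate 2 of variant 2 and replicate 1 of mock held the highest pair of values in 11 of these 14 probes. They did so in 22 of the 93 members above the level and below the ceiling, in 3 of the 32 such probes of the repeat families, in 24 of 258 human mature-named probes above the level, in 7 of 99 mouse-named probes with a human namesake, and in 22 of 127 human precursor-named probes, where this pair of arrays was the most frequent one at the top. The mouse-named probes with the suffix -P were not counted. Of the sets counted outside the members, this pair led only among the human precursor-named probes. There replicate 2 of mock with replicate 2 of variant 1 followed with 20. Among the human mature-named probes that other pair led with 29. Among mouse-named probes with a namesake, other pairs reached 11. The probe for human GAPDH, an mRNA of every cell, read 6.51 and 6.40 in variant 1, 7.13 and 7.58 in variant 2, and 8.94 and 6.22 in mock. The probe hsa-miR-923, whose name was later withdrawn because it maps to ribosomal RNA, read 13.81 and 13.91 in variant 1, 14.10 and 15.28 in variant 2, and 14.35 and 13.11 in mock. The part of these array differences in the members' values was not tested.

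The differences of the miR-2132 to miR-2146 probes changed in size when single arrays were left out. For both variants against mock, the sign of the median changed as well. Between variant 2 and variant 1 the median difference of the 14 was 1.00, with 13 of 14 higher in variant 2, and it was 0.22 without replicate 2 of variant 2. For both variants against mock the median was -0.02, but 0.66 without replicate 1 of mock and -0.37 without replicate 2 of variant 2. None of these probes passed the test in any comparison described below.

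Several members above the Randomer level carry the name of a miRNA known in both species, which the array spells differently for each. Whether the mouse-named and human-named probes have the same sequence was not tested here. The probe mmu-miR-125b-5p, a relative of the worm lin-4 RNA that times development, read 10.75 and 10.68 in variant 1, 10.59 and 10.03 in variant 2, and 10.25 and 10.81 in mock. The human-named probe hsa-miR-125b had a mean of 10.63 against 10.52 for the mouse-named one, and the difference of the mouse-named minus the human-named probe lay between -0.54 and 0.18 over the 6 arrays. These 2 probes gave nearly the same signal.

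Other such pairs were less close. For mmu-miR-31, a miRNA often raised in colorectal tumours, the difference from hsa-mir-31 lay between -1.09 and 0.30, with means of 9.21 and 9.65. For mmu-miR-361, which in both species lies in an intron of the CHM gene, the difference from hsa-miR-361-5p averaged 0.89 and reached 2.50 on 1 array. The probe mmu-miR-29b* averaged 7.42 against 7.69 for hsa-miR-29b-1*, mmu-miR-138* averaged 10.25 against 11.92 for hsa-miR-138-1*, and mmu-miR-320, a miRNA made without Drosha, averaged 10.96 against 11.93 for hsa-mir-320. The last 2 members were lower than the human-named probe on all 6 arrays. The probe mmu-mir-744 averaged 7.58 and was above the level, while hsa-miR-744 averaged 6.61 and was not. The human star probe, hsa-miR-744*, averaged 8.52 and was above the level. Probes for mmu-miR-483 (9.34) and mmu-miR-483* (9.59), from an intron of the Igf2 gene, lit up beside hsa-miR-483-3p (11.36), while hsa-miR-483-5p (6.70) did not pass the level.

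High signals also came from miR-1937 and miR-709, below those of mmu-miR-290-5p and mmu-miR-2140. The probe mmu-miR-1937a read 13.08 and 13.20 in variant 1, 13.17 and 13.04 in variant 2, and 12.35 and 13.45 in mock. The probe mmu-miR-1937b averaged 12.93 and mmu-miR-1937c 11.97. The probe for miR-709, which in the mouse acts in the nucleus on the precursor of miR-15a and miR-16-1, read 12.26 and 12.47 in variant 1, 12.51 and 12.83 in variant 2, and 13.22 and 12.42 in mock. These levels were among the highest of the members, and the groups overlapped for mmu-miR-1937a and for mmu-miR-709.

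Of the members numbered miR-1892 to miR-1971, to which miR-1937 belongs, 15 of 69 were above the Randomer level, and of those numbered miR-690 to miR-719 3 of 28 were, mmu-miR-709, mmu-miR-702 (mean 10.05), a miRNA cut from a short intron without Drosha in the mouse, and mmu-miR-706 (8.59). In the imprinted Dlk1-Dio3 region, whose miRNAs are expressed from the maternal chromosome, 3 of 22 members were above, mmu-miR-679 (10.32), mmu-miR-667 (10.12) and mmu-miR-382* (8.67). The human probe hsa-miR-382, which is named without the star and so for the other strand, averaged 6.95 and was not above the level. In the X-linked cluster that is expressed in the testis 0 of 27 members were, and its brightest, mmu-miR-742, averaged 6.60. Members of the let-7 family (0 of 3), of the miR-17 and miR-92a clusters (0 of 2), of the miR-15 and miR-16 family (0 of 4) and mmu-miR-344 (0 of 1) were not above the level either. These were mostly star-strand names, and the human let-7a and let-7b probes averaged 12.01 and 12.30.

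The other 152 members belong to none of these lists, and 24 of them were above the Randomer level. The brightest was mmu-miR-2182, with 11.16 and 11.84 in variant 1, 11.26 and 12.49 in variant 2, and 12.40 and 10.11 in mock, which has the same pair of high arrays as the miR-2132 to miR-2146 probes. It was followed by mmu-miR-320, mmu-miR-1186 (10.65), mmu-miR-125b-5p, mmu-miR-138*, mmu-miR-1198 (10.07) and mmu-miR-1187 (9.71). The threshold itself divides close neighbours. Just above it were mmu-miR-2145, whose smallest distance to the level over the arrays was 0.0004, mmu-miR-1934 (0.023) and mmu-miR-2136 (0.11), and just below it mmu-miR-7a (-0.025), mmu-miR-297c (-0.032) and mmu-miR-291b-3p (-0.036).

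Whether Uc283+a changed any of these signals was asked with limma, fitted to all 2857 probes with 1 mean per group and Benjamini-Hochberg adjustment over all of them. For both variants against mock 0 of the 390 members passed an adjusted p of 0.05, as did 0% of all probes tested. The smallest adjusted p of a member was 0.98. At an unadjusted p under 0.05, 15 members were higher and 4 lower in the variants, that is 3.85% and 1.03%, against 2.35% and 2.03% of all probes tested. The signals of the 4 variant arrays did not overlap those of the mock arrays for 43 members that were higher (11% against 7.07% of all probes) and 22 that were lower (5.64% against 6.41%). At the unadjusted p, the share of higher members was above that of all probes and the share of lower members below it, and neither difference was tested.

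Variant 1 against mock gave 0 members past an adjusted p of 0.05 in limma (0% of all probes), with a smallest adjusted p of 0.964. At an unadjusted p under 0.05 there were 11 higher and 9 lower members, against 1.79% and 2% of all probes, which is 2.82% and 2.31% of the members. Arrays did not overlap for 71 higher and 67 lower members (18.2% and 17.2%), against 17% and 16.9% of all probes. Variant 2 against mock, which shares the mock arrays with the comparison before it, also gave 0 (0%), with a smallest adjusted p of 0.943. Its unadjusted counts were 12 higher and 7 lower members (3.08% and 1.79%), against 2.42% and 2.45%, and arrays did not overlap for 86 higher and 54 lower members (22.1% and 13.8%), against 16.7% and 16.3%. Variant 2 against variant 1 gave 0 members (0%), with a smallest adjusted p of 0.937, and 6 higher and 6 lower members at the unadjusted p (1.54% each) against 2.1% and 2.35%. Here arrays did not overlap for 84 higher and 64 lower members (21.5% and 16.4%), against 17.9% and 18%. Whether the members' shares differ from those of all probes was not tested in these comparisons.

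The members above the Randomer level with the smallest p are given as values, since none passed the test. The probe mmu-miR-669h-3p of the repeat families read 9.63 and 9.04 in variant 1, 9.46 and 9.81 in variant 2, and 7.95 and 8.02 in mock. All 4 variant arrays lay above both mock arrays. The difference of both variants minus mock was 1.50 (SE 0.34), with an adjusted p of 0.98 in limma. For mmu-miR-1937c the signal was 12.38 and 12.43 in variant 1, 12.40 and 12.22 in variant 2, and 11.19 and 11.18 in mock, again with no overlap. Its difference was 1.17 (SE 0.31), with an adjusted p of 0.98 in limma. The related mmu-miR-1937a and mmu-miR-1937b, by contrast, had overlapping groups.

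The probe mmu-miR-207 read 9.25 and 9.70 in variant 1, 9.27 and 9.16 in variant 2, and 8.52 and 8.03 in mock, a difference of 1.07 for both variants with no overlap. On the lower side, mmu-miR-689 read 7.88 and 8.21 in variant 1, 9.16 and 10.05 in variant 2, and 9.997 and 9.69 in mock. Its 2 variant 1 arrays lay below all others, with differences of -1.80 (SE 0.43) for variant 1 minus mock and 1.56 for variant 2 minus variant 1, at adjusted p of 0.964 and 0.937 in limma. The probe mmu-miR-2183 had a like order, with 7.37 and 7.06 in variant 1, 8.51 and 8.31 in variant 2, and 8.37 and 8.35 in mock.

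For mmu-miR-31 the signal was 9.77 and 8.64 in variant 1, 8.37 and 8.84 in variant 2, and 9.94 and 9.68 in mock. Its groups overlapped through 1 variant 1 array, and the difference was -0.91 for both variants and -1.21 for variant 2 alone. The human-named hsa-mir-31 read 9.63 and 9.63 in variant 1, 9.45 and 9.29 in variant 2, and 10.52 and 9.38 in mock, so its higher mock mean came from 1 array. For mmu-miR-361 the signal was 9.60 and 8.79 in variant 1, 10.21 and 9.27 in variant 2, and 10.19 and 10.15 in mock, with overlapping groups. The difference for both variants was -0.70. It was -0.46 without replicate 2 and -0.94 without replicate 1 of variant 2.

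The remaining members with the smallest p in a single comparison had smaller or less even differences. Variant 2 minus mock was 1.01 for mmu-miR-1938, -0.92 for mmu-miR-466c-5p and -0.82 for mmu-miR-7a*. The last was -0.45 without replicate 1 and -1.19 without replicate 2 of mock. Variant 1 minus mock was -1.23 for mmu-miR-2135, one of the probes with a pair of high arrays, and -0.52 without replicate 1 or -1.94 without replicate 2 of mock. Variant 2 minus variant 1 was 1.32 for mmu-miR-2138, of the same group, and 2.20 without replicate 1 or 0.44 without replicate 2 of variant 2. It was -0.73 for mmu-miR-669f, -0.75 for mmu-miR-292-3p and -0.78 for mmu-miR-1957. The last was -0.47 without replicate 2 and -1.09 without replicate 1 of variant 2.

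The widest difference of any member came from a probe that was above the Randomer level on only 5 arrays and that is named here after its values were seen. The probe mmu-miR-1945 read 8.47 and 7.68 in variant 1, 8.12 and 6.55 in variant 2, and 10.15 and 10.12 in mock. The difference of both variants minus mock was -2.43 (SE 0.48), the unadjusted p 0.00081 and the adjusted p 0.98 in limma. It was the most negative difference of all 2857 probes.

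Of the 53 members of the repeat families, none of which passed the test, 38 were higher for both variants minus mock, with a median difference of 0.19, beside 1407 of 2857 higher and a median of -0.01 over all probes tested. Without replicate 2 of variant 2 the count was 33 of 53 and the median 0.10. The list was not tested as a set, and its members share much of their sequence. Over all 390 members the median difference was 0.02, with 201 higher and 189 lower.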

How the data were processed

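Per the labels' protocols, RNA was extracted with Trizol, treated with DNase and labelled with biotin. The authors deposited 1 table of normalized one-colour log2 signals, and the submitters' processing notes name limma. The normalization method and the background correction are not stated in these sources. That the logarithm has base 2 is read from the top values, just under 16. Members were found by name. limma 3.58.1 (R 4.3.3) was fitted to the human, ultraconserved-region and mouse-named probes on all 6 arrays, with 3 residual and 5.54 prior degrees of freedom. Tests were two-sided. Control, mismatch and Randomer rows were left out of the fit, which ran without a filter on dim probes. The number of arrays limits the precision. In simulated data for both variants against mock over 2857 probes, the fit recovered 4.8% of log2 changes of 1, 36.1% of 1.5, 72.2% of 2 and 95.5% of 3.

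The members and the 11 lists were chosen with earlier results of these data known. Named are members at the ceiling, the 20 brightest others, the 3 higher and 3 lower with the smallest p in each of 4 comparisons, the brightest of each list, and the 3 nearest the Randomer level on either side. Sequences are from RefSeq, GRCh38.p14. Alternatives changed the Randomer level, the name match, the normalization and the arrays used.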

Additional observations from a re-analysis of the deposited data

How the results depend on the processing

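The count of 94 members above the Randomer level was 75 against the highest Randomer probe of each array, 67 against the Randomer median plus 3 median absolute deviations, and 132 where 1 array of every group sufficed. It was 95 to 108 with 1 array left out, and 66 where any shared miRNA number counted as a human namesake. Ignoring capital letters left 381 members, 91 of them above the level. With values within 0.5 of 16 on any array, 2 members counted as at the ceiling instead of 1. In each of the 4 comparisons limma called 0 members under the 13 settings run, with the smallest adjusted p of a member at 0.30 where the probes above the Randomer level alone were tested. The named members with the smallest p kept the direction of their difference under all 12 alternatives, and mmu-miR-1945 under the 11 that tested it (-2.83 to -2.03). They were chosen on these same arrays. Several alternatives, such as another choice of probes to test, alter the p and not the difference. A kept direction was therefore in part fixed in advance. No paired analysis was possible because the labels number no replicates, and the numbers used here were given in accession order. With 2 arrays per group, changes of 1 on the log2 scale were rarely recovered in the data simulated for both variants against mock. Those data had independent arrays, and the other comparisons were not simulated.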
